A study of Mus musculus with 18 samples.

Results

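Vascular smooth muscle cells and pericytes, together called mural cells, wrap blood vessels, and 10 genes that mark them were followed here in bone marrow mesenchymal stem cells (BM MSCs) of the mouse. The genes were chosen by symbol and by what they are known to encode, but with earlier results of these data known. All 10 had a row among the 24421 gene symbols of both count tables. Of these, 4 encode the contractile apparatus of smooth muscle: Acta2 (smooth muscle α-actin), Tagln (transgelin, or SM22α), Myh11 (smooth muscle myosin heavy chain) and Cnn1 (calponin). The other 6 mark pericytes or the mural cell surface: Rgs5 (a regulator of G-protein signalling), Cspg4 (the proteoglycan NG2), Pdgfrb (PDGF receptor β), Mcam (the adhesion molecule CD146), Abcc9 (the sulphonylurea receptor SUR2) and Kcnj8 (the potassium channel pore Kir6.1). After the filter on low counts, 9 of the 10 were tested in the cultured cells and all 10 in the sorted cells.

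Contractile genes of smooth muscle are switched on together by the serum response factor SRF and its partners of the myocardin family, which bind a short DNA element called the CArG box, and stromal cells grown on plastic take up much of this programme as stress fibres form. Pericytes are recruited to vessels by PDGF-B acting on PDGF receptor β, and Abcc9 and Kcnj8 encode the regulatory and pore subunits of the vascular ATP-sensitive potassium channel. In bone marrow, stromal cells around vessels carry NG2 or PDGF receptor β and support blood formation, and the Cspg4 (NG2) promoter is used to drive Cre in such cells.

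RNA was sequenced in 18 libraries, 3 in each of 6 groups. For 12 of them, CD51+/PDGFRα+ BM MSCs (MSPCs in the labels) from C57BL/6 mice aged 4 to 6 months, either Pot1a wild/wild (wt/wt) or flox/flox and all with a flox-stop-flox tdTomato reporter, took up Cre vesicles (10 µL per well for 12 h), were sorted as tdTomato+ after 48 h, and were labelled week 1 or week 4. The other 6 were tdTomato+ cells sorted from digested BM of C57BL/6 mice aged 2 weeks that carried NG2-cre and loxp-tdTomato, with 3 titled Pot1a wt/Δ and 3 Pot1a Δ/Δ. The genotype field reads fl/fl for all 6, so the titles set these groups, and in these mice Cre acts in any cell that has used the Cspg4 promoter. POT1a protects chromosome ends, and the comparisons ask what its deletion does to MSCs.

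Libraries held 12807832 to 90717232 counts in culture and 28918757 to 49992698 in sorted cells. Levels are given as CPM, counts scaled to the size of the library by the TMM method, and folds as log2 with the standard error (SE) and a Benjamini-Hochberg adjusted p from edgeR's quasi-likelihood test over all genes of the table, with 0.05 as the threshold. Pot1a, the deleted gene, did not fall with the label in these counts. In Δ/Δ-labelled libraries it was at 31.1 to 37.9 CPM against 33.8 to 36.6 CPM in wt/wt at week 1, at 42.8 to 47.9 against 33.2 to 37.8 CPM at week 4 (log2 fold change 0.39, adjusted p = 0.0298), and at 30.8, 19.1 and 31.0 against 26.9, 30.0 and 34.3 CPM in sorted cells (-0.17, adjusted p = 0.824). By qPCR, the paper reports reduced Pot1a in the cultured cells after Cre and in the sorted tdTomato+ cells. It also shows the deletion band on a gel for the cultured cells. Counts per gene symbol do not show which exons were read, so they do not measure the deletion itself. Every direction below follows the labels. The stromal gene Cxcl12 was at 2738 CPM or more in all 18 libraries. The endothelial gene Pecam1 was at 0.247 CPM or less in culture, whereas it was at 125 to 208 CPM in all 6 sorted libraries. Megakaryocyte markers summed to 1865 CPM in wt/Δ replicate 2 and 975 CPM in Δ/Δ replicate 3 of the sorted cells, against 18.2 to 30.2 CPM in the other 4. Xist was absent or nearly so (0 and 0.0334 CPM) in wt/Δ replicates 1 and 3, against 24.4 to 46.7 CPM in the other sorted libraries, so the sexes were not balanced. At week 4, replicate 1 of wt/wt and of the Δ/Δ-labelled libraries stood apart from the rest in several of the 10 genes, as given beside each.

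On the mouse genome (GRCm38, GENCODE M21), with positions given for 9 of the 10 genes, the contractile genes lie at chr19:34241090-34255590 (Acta2, minus strand), chr9:45929619-45936058 (Tagln, minus), chr16:14194535-14291372 (Myh11, minus) and chr9:22099216-22109630 (Cnn1, plus). Kcnj8 (chr6:142564837-142571614) and Abcc9 (chr6:142587862-142702315) are neighbours on the minus strand with 16247 bases between them. Rgs5 lies at chr1:169655501-169695813, Cspg4 at chr9:56865033-56899870 and Mcam at chr9:44134469-44142727, all on the plus strand. The library kit keeps no strand, so reads of a gene and of an antisense partner cannot be told apart. This touches Tagln most, since 62.4% of its exon bases are also covered by the antisense transcript Gm48529 and 5.43% by Pcsk7. Of the 10 genes, 9 have no stretch of 75 bases in common with a transcript of another gene. In Abcc9, 12 of 7425 such stretches (0.162%) are shared.

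The start sites of the contractile genes Acta2 and Cnn1 and of the channel genes Kcnj8 and Abcc9 are shown first. The CArG box is the element known to join the contractile genes. RefSeq promoters (GRCm38.p6, 250 bases before to 50 bases after the start, 5′ to 3′ on the gene's strand) were at hand for 7 of the genes and are printed for 4. In Acta2, capitals mark CArG-like elements, that is a CArG box with at most 1 G or C in its A/T core, a search chosen after the sequences were seen. In Kcnj8 and Abcc9 capitals mark TGGGAA, the core bound by RBPJ, the DNA-binding partner of Notch.
Acta2 (chr19:34255324-34255623, minus strand): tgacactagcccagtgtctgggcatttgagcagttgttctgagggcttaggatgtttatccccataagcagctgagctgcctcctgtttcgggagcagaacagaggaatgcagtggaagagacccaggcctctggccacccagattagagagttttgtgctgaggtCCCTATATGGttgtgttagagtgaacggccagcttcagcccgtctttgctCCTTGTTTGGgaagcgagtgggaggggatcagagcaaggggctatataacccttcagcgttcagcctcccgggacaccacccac
Cnn1 (chr9:22099003-22099302, plus strand): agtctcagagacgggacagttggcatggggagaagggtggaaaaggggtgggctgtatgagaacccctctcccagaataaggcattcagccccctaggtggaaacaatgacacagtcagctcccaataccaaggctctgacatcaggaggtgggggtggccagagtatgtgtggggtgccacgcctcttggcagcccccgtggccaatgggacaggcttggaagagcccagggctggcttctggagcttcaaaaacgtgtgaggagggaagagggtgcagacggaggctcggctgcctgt
Kcnj8 (chr6:142571565-142571864, minus strand): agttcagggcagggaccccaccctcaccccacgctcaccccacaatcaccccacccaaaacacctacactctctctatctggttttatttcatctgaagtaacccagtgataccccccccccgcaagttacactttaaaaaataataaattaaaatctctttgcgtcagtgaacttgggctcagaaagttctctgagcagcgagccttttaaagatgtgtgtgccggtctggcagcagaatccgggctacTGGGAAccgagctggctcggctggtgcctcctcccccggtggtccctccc
Abcc9 (chr6:142702225-142702524, minus strand): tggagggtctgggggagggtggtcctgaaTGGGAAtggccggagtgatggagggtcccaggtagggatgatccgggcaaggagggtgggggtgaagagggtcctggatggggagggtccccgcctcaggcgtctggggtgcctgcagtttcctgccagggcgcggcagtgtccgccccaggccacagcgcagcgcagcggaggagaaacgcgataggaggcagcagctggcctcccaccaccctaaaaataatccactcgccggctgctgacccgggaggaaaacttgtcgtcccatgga

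Of the contractile genes, the 7 promoters cover Acta2 and Cnn1 only, since none was at hand for Tagln or Myh11. A CArG box with only A or T in its core was in 0 of the 7 promoters, against 1.63% of all 32851 RefSeq promoters of this length searched on both strands. The CArG-like form was in 1 of the 7, against 9.98% of all promoters. That was Acta2, with CCCTATATGG at bases 167 to 176 of the window and CCTTGTTTGG at bases 217 to 226, whereas the Cnn1 window held no such element and is printed without capitals. TGGGAA was in 3 of 7 (Acta2, Kcnj8 and Abcc9), against 25.6% of all promoters, and in Acta2 it overlaps the second CArG-like element. The element CATTCC (MCAT, bound by TEAD factors) was in 2 of 7, Acta2 and Abcc9, against 14.7% of all, and in Abcc9 it overlaps TGGGAA. These windows are short, and a match is a description of the letters only.

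Per length, Acta2 and Tagln stood at the top of the 10 in culture, while Myh11 was below Cnn1 and Pdgfrb in all 4 cultured groups. On the scale of CPM per kilobase of exon, Acta2 was at 3194 ± 367 (SD, n = 3) in wt/wt at week 1, which was rank 4 of the 23376 genes with a known length. Tagln followed at 477 ± 64.2, Cnn1 at 264 ± 8.70 and Pdgfrb at 115 ± 14.9, and no library of these 4 overlapped the next gene in order. Myh11, the contractile gene most restricted to mature smooth muscle, was far below them at 6.72 ± 1.71, a range that overlapped Mcam at 4.84 ± 0.639. Cspg4 came next at 3.31 ± 0.499, then Abcc9 at 0.489 ± 0.0872, Rgs5 at 0.0607 ± 0.0308 and Kcnj8 at 0.00890 ± 0.00789.

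The order was nearly the same in the other cultured groups. Acta2 and Tagln were first and second in all 4, and Pdgfrb and Cnn1 overlapped at week 4, where Pdgfrb was at 169 ± 24.7 CPM per kb and Cnn1 at 136 ± 21.8 in the Δ/Δ-labelled libraries. Rgs5 and Kcnj8 were the lowest pair in all 4 groups. The cultures were therefore rich in actin, transgelin and calponin transcripts and held little of the pericyte genes Rgs5, Abcc9 and Kcnj8. Acta2 alone took 0.629% to 0.820% of all counts in wt/wt at week 1. Its counts were 98.9 to 167 times those of Myh11.

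**Figure D1:**
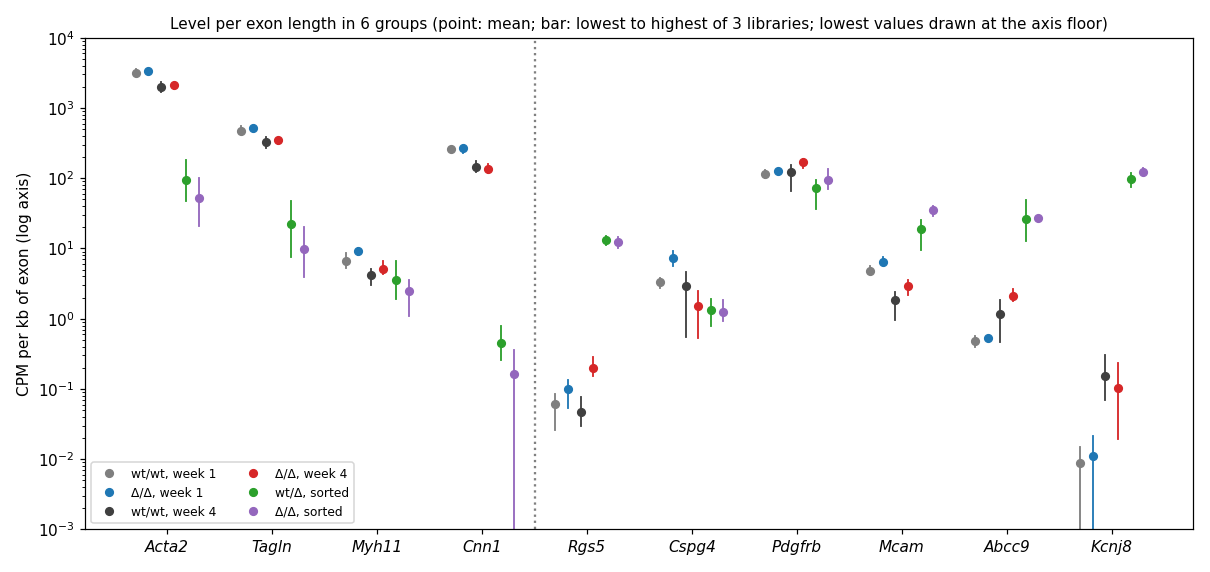
Level of the 10 genes in CPM per kilobase of exon (log axis) in the 6 groups; points are means, bars run from the lowest to the highest of 3 libraries, values below the axis are drawn at its floor, and the dotted line parts the contractile genes from the others. Acta2 stood at 3194 in wt/wt culture at week 1 and at 95.5 in sorted wt/Δ cells, while Kcnj8 stood at 0.00890 and 98.0 in the same groups.

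All 4 contractile genes were lower at week 4 than at week 1, in wt/wt and in the Δ/Δ-labelled libraries. In wt/wt, 6 of the 9 genes tested passed the test over time, 5 lower and 1 higher, where 34.0% of all 13169 genes did (17.9% higher and 16.1% lower). Acta2 was at 7941, 6475 and 6624 CPM at week 1 and at 3682, 5169.5 and 4331 CPM at week 4. The lowest library of week 1 was above the highest of week 4. The log2 fold change was -0.67 (SE 0.15, adjusted p = 0.00373), a 1.596-fold fall. A lower level in bulk RNA can come from fewer cells of a type or from less RNA per cell, and these cannot be told apart. Tagln, whose product binds actin filaments, went from 1095, 861 and 891 CPM to 539, 769 and 662 CPM, again without overlap (-0.53, SE 0.15, adjusted p = 0.0142). Cnn1, which restrains actomyosin, had the largest fall of the 4, from 715, 749.8 and 704 CPM to 486, 364 and 336 CPM (-0.87, SE 0.16, adjusted p = 0.00119). Myh11 went from 47.4, 65.4 and 40.2 CPM to 22.6, 34.2 and 38.4 CPM, with a narrow gap between the groups (-0.68, SE 0.23, adjusted p = 0.0374). The call of Myh11 was lost when any of wt/wt replicates 1 and 2 of week 1 or replicates 1 and 2 of week 4 was left out (adjusted p = 0.0564 to 0.184), and that of Tagln without wt/wt replicate 1 of week 1 (0.0606). A fit of these 6 libraries alone lost Tagln (adjusted p = 0.0594) and Myh11 (0.0760), and leaving out both week 4 libraries numbered 1 lost Myh11 (0.113).

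The same 4 fell in the Δ/Δ-labelled libraries. Here 7 of the 9 genes passed the test over time, 6 lower and 1 higher, against 35.1% of all genes (18.8% higher and 16.3% lower). Acta2 was at 7269.9, 7172 and 7909 CPM at week 1 and at 4103, 4843 and 4863 CPM at week 4 (log2 fold change -0.69, SE 0.15, adjusted p = 0.00299). Cnn1 went from 618, 796 and 768 CPM to 437, 319.7 and 357 CPM (-0.97, SE 0.16, adjusted p = 0.000556). Tagln changed by -0.57 (SE 0.15, adjusted p = 0.00939) and Myh11 by -0.82 (SE 0.23, adjusted p = 0.0150) on the log2 scale. The groups of week 1 and week 4 did not overlap for any of the 4, though the share of all genes with such a gap was not counted. The change over time in the Δ/Δ-labelled libraries minus that in wt/wt was -0.02 for Acta2, -0.04 for Tagln, -0.10 for Cnn1 and -0.14 for Myh11 (adjusted p = 0.900 to 0.986). The call of Myh11 was lost without replicate 2 of week 1, or without replicate 1 or 3 of week 4 (adjusted p = 0.0553 to 0.0673).

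By genotype, none of the 4 contractile genes passed the test at either week. At week 1, Acta2 differed by 0.09 on the log2 scale (95% interval -0.23 to 0.41), Tagln by 0.11 (-0.21 to 0.42), Cnn1 by 0.01 (-0.34 to 0.35) and Myh11 by 0.44 (-0.05 to 0.93). At week 4 the differences were 0.07 (-0.25 to 0.39), 0.06 (-0.25 to 0.38), -0.09 (-0.44 to 0.26) and 0.30 (-0.20 to 0.80) in the same order. The groups overlapped for each gene at each week. The intervals are narrow for Acta2, Tagln and Cnn1 and wider for Myh11. Myh11 was at 61.6, 77.3 and 68.9 CPM in the Δ/Δ-labelled libraries of week 1, against 47.4, 65.4 and 40.2 CPM in wt/wt.

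**Figure D2:**
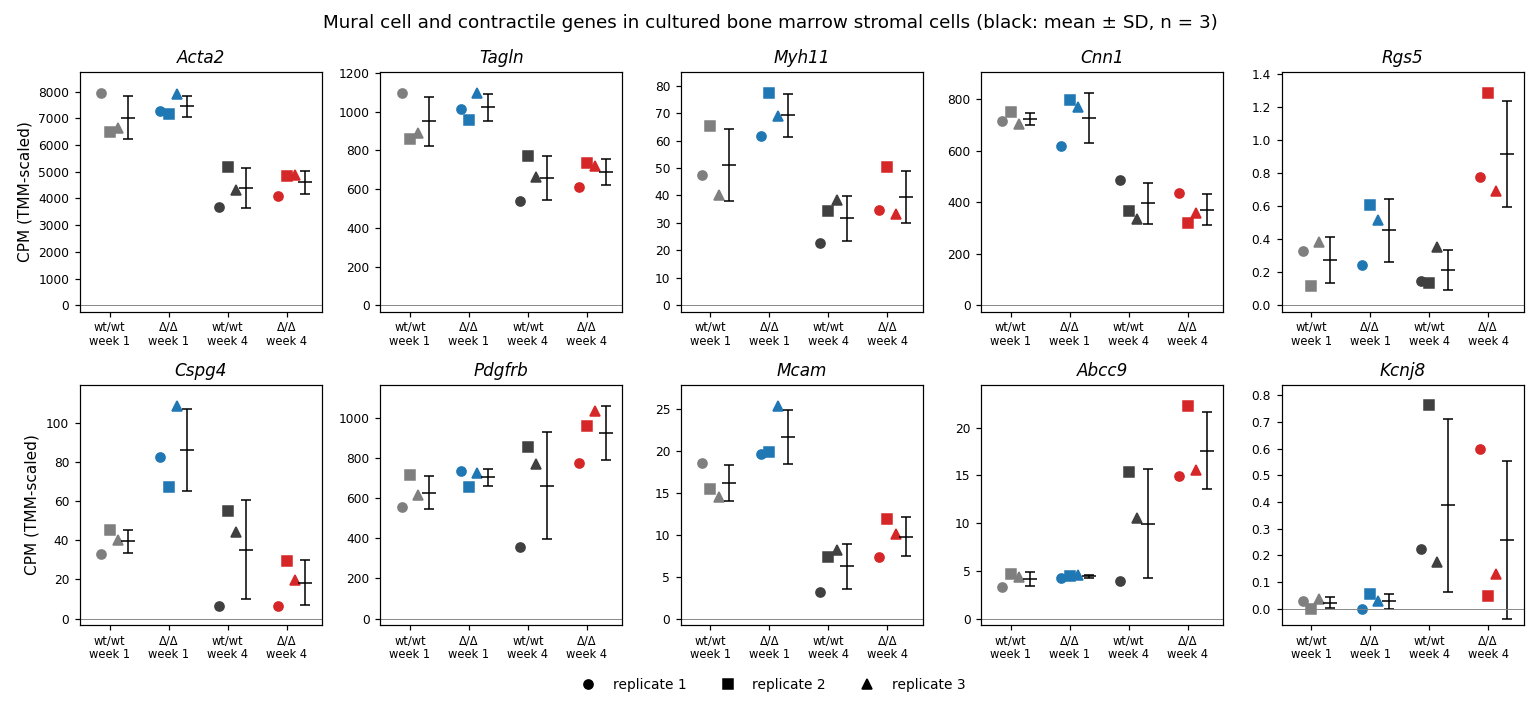
TMM-scaled CPM (linear axis) of the 10 genes in each cultured library by group; symbols mark replicates 1 to 3, and the black bars give the mean ± SD of 3 libraries. The contractile genes sit lower at week 4 in both genotypes, and replicate 1 of wt/wt at week 4 is the lowest of that group in Cspg4 (6.50 CPM), Pdgfrb (358 CPM), Mcam (3.21 CPM) and Abcc9 (3.96 CPM).

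The wider apparatus moved less evenly. Of 29 further genes of the smooth muscle contractile apparatus, all were tested, and in wt/wt 13 fell and none rose from week 1 to week 4, where 16.1% and 17.9% of all genes did, with a median log2 fold change of -0.44 beside -0.0082 over all genes. Itga8, an integrin of smooth muscle, fell from a mean of 27.8 to 2.91 CPM (-3.23, SE 0.27, adjusted p = 2.7e-06) and Synpo2, an actin-bundling protein, from 39.8 to 7.44 CPM (-2.39, SE 0.28, adjusted p = 3.72e-05). Smtn (smoothelin) fell by 0.95 on the log2 scale and Actg2, the enteric smooth muscle actin, by 0.49. Ppp1r12b, a subunit of myosin phosphatase, changed by -0.98 and Pdlim7, an actin-associated scaffold, by -0.44 (adjusted p = 0.00433 and 0.00812).

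In the Δ/Δ-labelled libraries 3 of the 29 rose and 7 fell over time, where 18.8% and 16.3% of all genes did, with a median of -0.18 beside 0.0035 over all genes. Smtn was lower here too (-0.93, adjusted p = 8.97e-05), as were Csrp1 (-0.61), Actn1 (-0.87), Pdlim7 (-0.42) and Ppp1r14a (-1.04), while Mylk, the kinase that starts contraction by phosphorylating myosin light chain, rose from a mean of 283 to 392 CPM (0.47, SE 0.13, adjusted p = 0.0141). By genotype at week 4, 3 of the 29 were higher in the Δ/Δ-labelled libraries, where 9.20% of all genes were, and none was lower. Itga8 was at 21.4, 26.7 and 17.4 CPM against 2.39, 2.56 and 3.79 CPM in wt/wt (2.87, SE 0.27, adjusted p = 1.42e-05). Des (desmin, the muscle intermediate filament) was at 17.0, 14.2 and 16.9 against 3.89, 6.10 and 4.22 CPM (1.75, SE 0.23, adjusted p = 0.000177), and Synpo2 differed by 1.55 (SE 0.28, adjusted p = 0.00192). At week 1 none of the 29 passed.

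Of 11 regulators around SRF, 10 were tested. Srf itself fell over time in wt/wt, from a mean of 72.0 to 43.1 CPM (-0.74, SE 0.18, adjusted p = 0.0062), and in the Δ/Δ-labelled libraries, from 60.6 to 41.7 CPM (-0.54, SE 0.17, adjusted p = 0.031). Myocd (myocardin) was at 10.3 CPM in wt/wt at both weeks on average, and in the Δ/Δ-labelled libraries it went from 14.8, 12.5 and 13.4 CPM to 4.44, 7.06 and 7.32 CPM (-1.11, SE 0.28, adjusted p = 0.00918). The myocardin-related genes Mkl1 and Mkl2 did not pass the test over time (adjusted p = 0.120 to 0.551). By genotype at week 4, Fhl2, a LIM protein that binds SRF, was higher (0.65, adjusted p = 0.000811), and Klf4, a factor that represses smooth muscle genes (-1.21, adjusted p = 0.00264), and Nfatc1, a calcium-driven transcription factor (-0.63, adjusted p = 0.00491), were lower. Over all genes at that week, 9.20% were higher and 6.46% lower. Srf, Mkl1, Mkl2 and Myocd did not pass by genotype at week 4 (-0.05, -0.18, -0.17 and -0.73, adjusted p = 0.906, 0.689, 0.751 and 0.112). Without both week 4 libraries numbered 1, Myocd also counted among the genes lower at week 4, so that 1 was higher and 3 lower.

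Markers of other tissues moved over the same weeks. The sum of 8 osteoblast markers was 5111 to 7747 CPM at week 1 and 13477 to 18255 CPM at week 4 in wt/wt, and 8219.7 to 8935 and 4818 to 5852 CPM in the Δ/Δ-labelled libraries. In the latter the sum and the single genes went apart. Of the 8, 3 rose and 1 fell over time, where 18.8% and 16.3% of all genes did. The median log2 fold change of the 8 was 0.40. The 6 chondrocyte markers summed to 5835 to 7870.1 and 1236 to 3481 CPM in wt/wt, and to 7397 to 8098 and 1726 to 2347 CPM in the Δ/Δ-labelled libraries. The 9 skeletal muscle markers summed to 64.0 to 94.0 CPM and 7.62 to 9.54 CPM in wt/wt, and to 74.8 to 119.5 and 32.01 to 32.35 CPM in the Δ/Δ-labelled libraries. Most of that in wt/wt was Acta1, the skeletal actin, at 56.4 to 86.5 CPM at week 1, while the defining gene Myog was at 0 in wt/wt at both weeks. Des, counted above among the contractile genes, is also among these 9 markers and made up a large part of their sums at week 4. The part of these markers of other tissues in the fall of the contractile genes was not tested.

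**Figure D3:**
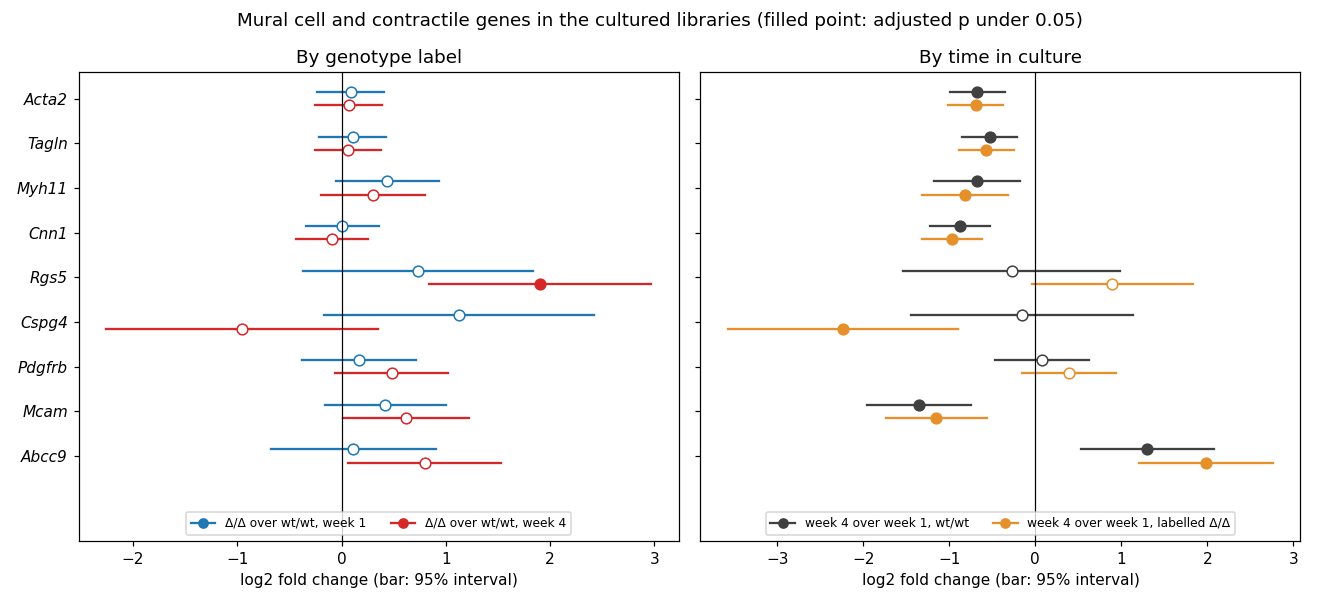
Log2 fold change (x axis) of the 9 genes tested in culture, by genotype label at each week (left) and by time in each genotype (right); bars are 95% intervals and filled points passed the test. Rgs5 at week 4 is the filled point on the left, at 1.90, and the contractile genes lie between -0.53 and -0.97 on the right.

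Among the pericyte and surface genes, 1 passed the test by genotype. At week 1 it was 0 of all 9 genes tested, the 4 contractile genes included, where 1.02% of all genes passed (0.752% higher and 0.266% lower). None had an unadjusted p under 0.05, and DESeq2 called 0 as well. At week 4 it was 1 of 9, where 15.7% of all genes passed (9.20% higher and 6.46% lower). That gene was Rgs5, which encodes a GTPase-activating protein for Gα subunits and is a classical pericyte marker. It was at 0.149, 0.135 and 0.355 CPM in wt/wt and at 0.775, 1.28 and 0.694 CPM in the Δ/Δ-labelled libraries, with no overlap. The fold change was 3.74 (log2 1.90, SE 0.49, adjusted p = 0.0187). These levels rest on few reads, 2, 3 and 10 counts against 22, 26 and 64. Rgs5 passed the filter on low counts only through the Δ/Δ-labelled libraries of week 4, the group where it was highest. The call was lost without wt/wt replicate 2 (adjusted p = 0.0861), without Δ/Δ replicate 2 (0.0578), without both libraries numbered 1 (0.0632) and with a replicate block within each genotype (1.53, adjusted p = 0.207). Over time the Δ/Δ-labelled libraries did not overlap (0.90, -0.04 to 1.83, adjusted p = 0.128). At week 1 Rgs5 was at 0.328, 0.117 and 0.383 against 0.242, 0.608 and 0.517 CPM (0.73, 95% interval -0.37 to 1.83). The difference between the genotype effects of week 4 and week 1 was 1.17 (-0.40 to 2.74, adjusted p = 0.463).

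Cspg4, the gene whose promoter drives Cre in the sorted cells, was the most variable of the 9 in culture. At week 1 it was at 33.2, 45.0 and 40.3 CPM in wt/wt and at 82.6, 66.9 and 108 CPM in the Δ/Δ-labelled libraries. The groups did not overlap, yet with the spread of all 12 libraries the test was not passed (1.12, SE 0.59, adjusted p = 0.513), whereas a fit of these 6 libraries alone gave an adjusted p of 0.0134. At week 4 it was at 6.50, 55.0 and 43.9 against 6.37, 29.1 and 19.6 CPM, and replicate 1 was the lowest library in both genotypes (-0.96, SE 0.60, adjusted p = 0.352). Without wt/wt replicate 1 the difference was -1.44 (adjusted p = 0.0311), and without both libraries numbered 1 it was -1.04 (adjusted p = 0.0157). Over time, Cspg4 fell in the Δ/Δ-labelled libraries (-2.23, SE 0.62, adjusted p = 0.0139, a 4.71-fold fall) and did not pass in wt/wt (-0.15, 95% interval -1.44 to 1.13). The genotype effect at week 4 minus that at week 1 was -2.08 (-3.91 to -0.24, adjusted p = 0.196). It was -2.56 without wt/wt replicate 1 of week 4 (adjusted p = 0.0120) and -2.16 without both libraries numbered 1 (adjusted p = 0.00160). In the fit of all 12 libraries 0 of the 9 genes passed this difference of effects, where 7.15% of all genes did (4.08% higher and 3.08% lower). Cspg4 had an unadjusted p under 0.05, and DESeq2 called 0.

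Mcam, an adhesion molecule shared by mural and endothelial cells and by clonogenic stromal cells, fell in both genotypes. In wt/wt it was at 18.6, 15.5 and 14.5 CPM at week 1 and at 3.21, 7.36 and 8.16 CPM at week 4 (-1.35, SE 0.28, adjusted p = 0.00253). In the Δ/Δ-labelled libraries it was at 19.7, 20.0 and 25.4 CPM and then at 7.36, 12.0 and 10.1 CPM (-1.15, SE 0.27, adjusted p = 0.00555). Week 1 was above week 4 in every library of each genotype, and without both week 4 libraries numbered 1 the changes were -1.05 and -0.98 on the log2 scale. By genotype the difference at week 1 was 0.42 (-0.16 to 1.00) with no overlap, and at week 4 it was 0.62 (0.01 to 1.22, adjusted p = 0.174) with overlap.

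Abcc9 was the channel subunit gene with measurable counts in culture, and it rose with time. In wt/wt it was at 3.28, 4.68 and 4.32 CPM at week 1 and at 3.96, 15.3 and 10.5 CPM at week 4, where replicate 1 stayed within the range of week 1 (1.30, SE 0.36, adjusted p = 0.0132). In the Δ/Δ-labelled libraries it was at 4.23, 4.42 and 4.56 CPM and then at 14.97, 22.2 and 15.5 CPM, without overlap (1.99, SE 0.36, adjusted p = 0.001). Its rise in wt/wt lost its call without replicate 1 of week 1 (adjusted p = 0.0544) or replicate 2 of week 4 (0.0680), or in a fit of these 6 libraries alone (0.0543). By genotype Abcc9 did not pass at week 1 (0.11, -0.68 to 0.91) or week 4 (0.80, 0.06 to 1.53, adjusted p = 0.149). Without wt/wt replicate 2 the difference at week 4 was 1.23 (adjusted p = 0.0319). Kcnj8, the pore subunit, had 0 to 17 counts in each cultured library and was not tested. It was at 0, 0.0298 and 0.0383 CPM in wt/wt at week 1 and at 0.177, 0.224 and 0.763 CPM at week 4, given from lowest to highest.

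Pdgfrb, the receptor through which pericytes are recruited, was high throughout. It was at 555, 716 and 615 CPM in wt/wt and at 736, 657 and 724 CPM in the Δ/Δ-labelled libraries at week 1, and at 358, 857 and 774 against 775, 960.5 and 1038 CPM at week 4. The groups overlapped at each week, and neither genotype difference passed (0.17, -0.38 to 0.71, and 0.48, -0.07 to 1.02). Nor did it pass over time (0.08 in wt/wt, adjusted p = 0.842, and 0.39 in the Δ/Δ-labelled libraries, adjusted p = 0.251). Without both week 4 libraries numbered 1 it passed over time in both, at 0.39 (adjusted p = 0.0240) and 0.51 (adjusted p = 0.00514).

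The wider pericyte genes gave more calls than the 10. Of 22 further pericyte markers 17 were tested in culture, and at week 4 8 were higher and 3 lower in the Δ/Δ-labelled libraries, where 9.20% and 6.46% of all genes were. Their median log2 fold change was 0.29 beside 0.0024 over all genes. Heyl, a Notch target and transcription factor, was at 0.149, 0.987 and 0.567 CPM in wt/wt. In the Δ/Δ-labelled libraries it was at 4.97, 5.83 and 5.22 CPM (3.12, SE 0.44, adjusted p = 0.000371). Like Rgs5, it passed the filter on low counts only through that group. Rgs4, a relative of Rgs5, was at 10.2, 7.18 and 8.69 against 57.5, 59.3 and 44.5 CPM (2.64, SE 0.25, adjusted p = 1.57e-05). Steap4, a metalloreductase, was at 6.05, 6.28 and 3.97 against 21.7, 29.4 and 28.3 CPM (2.29, SE 0.34, adjusted p = 0.000525). In none of these 3 did the groups overlap, though the share of all genes with such a gap was not counted. Aoc3, an amine oxidase of the mural cell surface, differed by 1.66 (SE 0.19, adjusted p = 7.02e-05) and Tbx18, a T-box factor of mural lineages, by 1.07 (SE 0.17, adjusted p = 0.000785). Other markers differed too at week 4. In the Δ/Δ-labelled libraries, against wt/wt, 10 mesenchymal stromal markers summed to 13530.1 to 17383 against 6949 to 9109.7 CPM, 8 osteoblast markers to 4818 to 5852 against 13477 to 18255 CPM and 6 adipocyte markers to 1167 to 1541 against 278 to 356 CPM, and their part in these differences was not tested. The stromal markers went both ways, with 4 of 9 tested higher and 3 lower, where 9.20% and 6.46% of all genes were. Their median log2 fold change was 0.23. The other 3 pericyte markers that were higher were Art3, Pde5a and Ppp1r12a, at 0.49 to 1.77.

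The 3 lower genes were Gucy1a3 and Gucy1b3, the subunits of the nitric oxide receptor guanylate cyclase, and Ndufa4l2, a mitochondrial protein induced by low oxygen. Gucy1a3 was at 38.3, 36.5 and 36.7 CPM in wt/wt and at 22.3, 22.6 and 19.6 CPM in the Δ/Δ-labelled libraries (-0.79, SE 0.14, adjusted p = 0.00209). At week 1 it was the sole gene of the list to pass, and there it was higher, at 1.51, 1.99 and 1.70 against 0.238, 0.351 and 0.498 CPM (2.28, SE 0.23, adjusted p = 0.000672). Over time Gucy1a3 rose by 6.70 on the log2 scale in wt/wt and by 3.63 in the Δ/Δ-labelled libraries, and Heyl by 3.96 and 6.07. Notch3, the receptor best known in mural cells, was at 2.32, 37.6 and 34.8 CPM in wt/wt and at 9.54, 52.5 and 30.9 CPM in the Δ/Δ-labelled libraries at week 4, lowest in replicate 1 of each (0.29, -1.29 to 1.87). Without both libraries numbered 1, 8 of the pericyte markers were higher and 3 lower at week 4. Over time, 7 were higher and 4 lower in wt/wt, where 17.9% and 16.1% of all genes were. In the Δ/Δ-labelled libraries 11 were higher and 3 lower, where 18.8% and 16.3% were. Ednra, the endothelin receptor, and Trpc6, a cation channel, rose in wt/wt (1.98 and 3.49) and in the Δ/Δ-labelled libraries (1.87 and 3.30). The time and genotype comparisons share libraries.

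**Figure D4:**
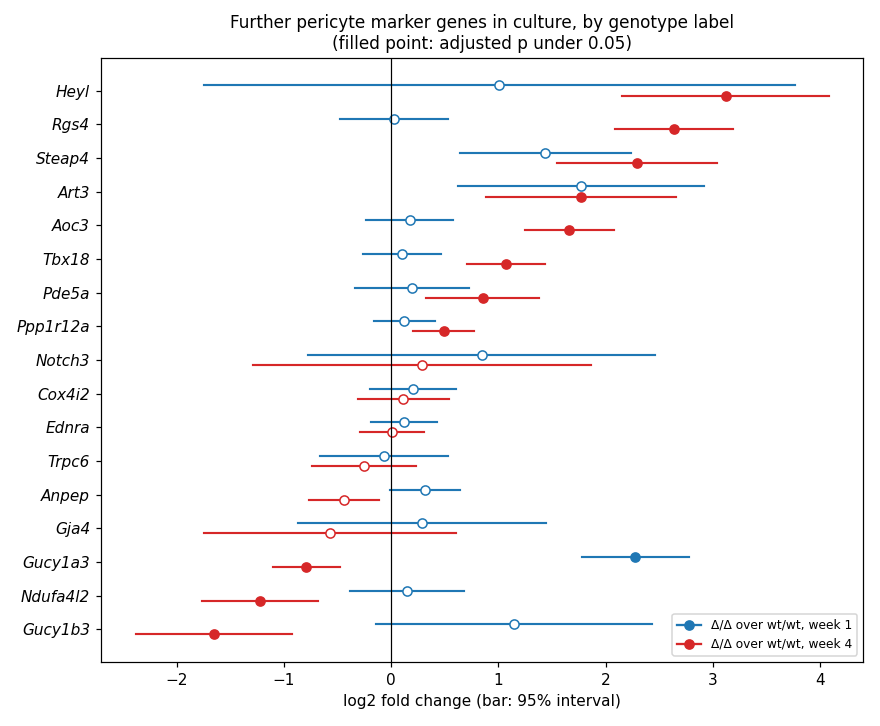
Log2 fold change (x axis) of the 17 further pericyte markers tested in culture, in the Δ/Δ-labelled libraries over wt/wt at week 1 (blue) and week 4 (red); bars are 95% intervals and filled points passed the test. At week 4, 8 genes lie to the right as filled points, up to Heyl at 3.12, and 3 to the left, down to Gucy1b3 at -1.65.

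The ligands of the PDGF receptors and the families of Rgs5 and of the channel were read as lists too. Of 6 PDGF genes 5 were tested, and at week 4 Pdgfra, the receptor used to sort these cells, was higher in the Δ/Δ-labelled libraries, at 193, 259 and 241 against 69.1, 109 and 103 CPM (1.30, SE 0.18, adjusted p = 0.00031). The ligands Pdgfc (-1.50, adjusted p = 9.21e-06) and Pdgfa (-0.98, adjusted p = 0.000491) were lower. The ligand of Pdgfrb, Pdgfb, is made by endothelium and was at group means of 0.0260 to 0.0691 CPM, too few reads to test. Of 8 tested RGS genes, Rgs4 and Rgs2 (1.44, adjusted p = 4.05e-05) were higher and Rgs17 (-1.20, adjusted p = 0.00241) lower at week 4. Beside these PDGF and RGS counts, 9.20% of all genes were higher and 6.46% lower at that week. Kcnj11 and Abcc8, which form the pancreatic version of the channel, were at or near 0 in culture, with group means of 0 to 0.0165 CPM, and were not tested. At week 1 none of the PDGF or RGS genes passed. Taking all 68 tested genes of these lists once each, edgeR called 1 at week 1 and DESeq2 called 6, while at week 4 the numbers were 22 and 23. Over all genes edgeR called 134 and DESeq2 445 at week 1, and 2062 and 2313 at week 4.

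In the sorted cells none of the 10 genes passed the test. This was so for all genes, since edgeR's quasi-likelihood test called 0% of 14605 genes, although 1792 had an unadjusted p under 0.05 and DESeq2 called 415. Of the 10, 1 had an unadjusted p under 0.05 and DESeq2 called 0.

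Mcam was the gene with that p. It was at 72.2, 85.2 and 32.1 CPM in wt/Δ and at 97.9, 118 and 133 CPM in the Δ/Δ-labelled libraries, and the groups did not overlap. The log2 fold change was 0.88 (SE 0.34, 95% interval 0.10 to 1.66, adjusted p = 0.354 by edgeR). It was 0.56 without wt/Δ replicate 3, 1.05 without both libraries rich in megakaryocyte markers, and 0.45 with a sex covariate. That covariate marks wt/Δ replicates 1 and 3, so the value with it sets the Δ/Δ-labelled libraries against wt/Δ replicate 2 alone. Mcam is also an endothelial gene. The sum of 10 endothelial markers was 1568 to 2044 CPM in wt/Δ and 2179 to 2359 CPM in the Δ/Δ-labelled libraries. None of the 10 markers was at 0 in a group. None passed the test, as no gene of the sorted cells did. Their median log2 fold change was 0.43 beside -0.0066 over all genes. The study's gate for MSCs takes CD31-negative cells, which would leave out endothelium. The labels give this sort as tdTomato+ without saying whether that gate was used. By flow cytometry of BM, the paper reports tdTomato only in cells negative for CD45, TER119 and CD31 and positive for PDGFRα and CD51. Pecam1, which encodes CD31, was at 125 to 137 CPM in wt/Δ and at 198 to 208 CPM in the Δ/Δ-labelled libraries. The part of these cells in the level of Mcam was not tested.

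The contractile genes varied most between sorted libraries. Acta2 was at 402, 122 and 105 CPM in wt/Δ and at 46.2, 221 and 81.4 CPM in the Δ/Δ-labelled libraries (-0.85, 95% interval -2.42 to 0.71, adjusted p = 0.663). Tagln was at 95.6, 23.1 and 15.3 against 7.80, 39.7 and 11.2 CPM, and Myh11 at 50.1, 14.6 and 16.0 against 8.44, 26.6 and 21.3 CPM. In each of these 3 genes wt/Δ replicate 1 was the highest of the 6 libraries, Δ/Δ replicate 2 the second and Δ/Δ replicate 1 the lowest. Cnn1 was at 2.19, 0.716 and 0.768 CPM in wt/Δ and at 0, 0.988 and 0.368 CPM in the Δ/Δ-labelled libraries. Its 3 Δ/Δ-labelled libraries held 0, 44 and 13 counts. Without wt/Δ replicate 1 the fold changes of Acta2, Tagln and Myh11 were 0.03, 0.02 and 0.29. That library also had the highest sum of 10 mesenchymal stromal markers, 31740.4 CPM against 11114.5 to 22271 CPM in the other 5, and was among the 2 with Xist at or near 0. With a sex covariate Acta2 and Tagln differed by -0.07 and -0.24, again against wt/Δ replicate 2 alone.

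Of the pericyte genes, Rgs5 and Kcnj8 were steadier than the contractile genes, while Abcc9 varied in wt/Δ about as much as Acta2. Rgs5 was at 59.2, 69.0 and 51.0 CPM in wt/Δ and at 56.9, 67.3 and 46.9 CPM in the Δ/Δ-labelled libraries (-0.07, 95% interval -0.52 to 0.38). Cspg4, in cells that had used its promoter to express Cre, was at 9.26, 22.4 and 16.2 against 12.0, 21.9 and 11.2 CPM (-0.09, -0.98 to 0.81). Kcnj8 was at 249, 306 and 193 against 289, 360.4 and 299 CPM (0.34, -0.15 to 0.83). Abcc9 was at 129, 107 and 414 against 239, 232 and 209.6 CPM (0.07, -1.03 to 1.17), and wt/Δ replicate 3 alone stood above the rest. Pdgfrb was at 519, 202 and 455 against 753, 409.9 and 384 CPM (0.39, -0.52 to 1.31). The groups overlapped in all 5. The interval of Rgs5 is the narrowest, and those of Abcc9, Pdgfrb and Cspg4 are wide.

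**Figure D5:**
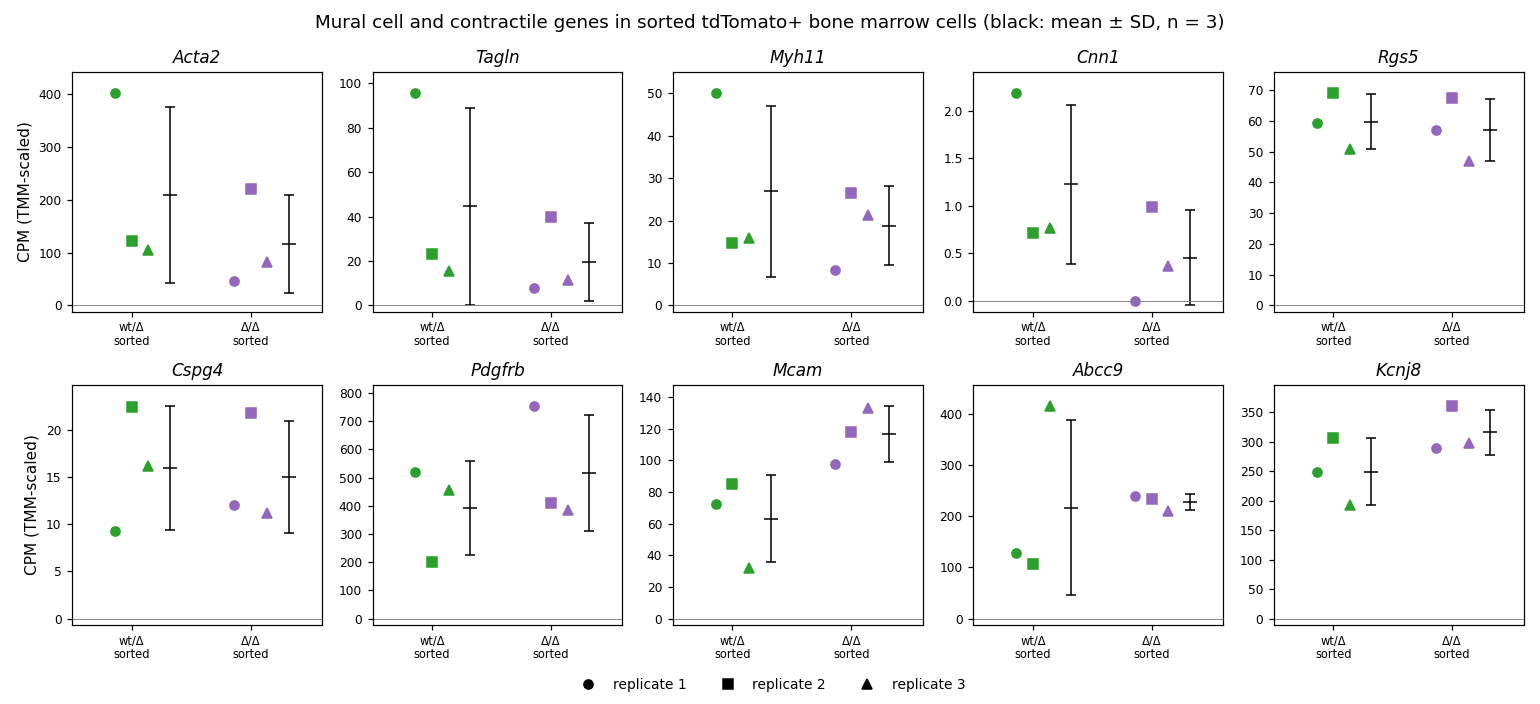
TMM-scaled CPM (linear axis) of the 10 genes in each sorted tdTomato+ library by group; symbols mark replicates 1 to 3, and black bars give the mean ± SD of 3 libraries. Mcam is the gene whose groups do not overlap (32.1 to 85.2 against 97.9 to 133 CPM), and wt/Δ replicate 1 is the highest point in the 4 contractile genes.

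None of the wider lists passed in the sorted cells either, with 0 of 75 tested genes by edgeR and by DESeq2 and 7 at an unadjusted p under 0.05. All 22 pericyte markers were tested there. Heyl was at 116 to 170 CPM in wt/Δ and at 135 to 218 CPM in the Δ/Δ-labelled libraries, Rgs4 at 450.2 to 506 and 635 to 793 CPM (0.54, 0.13 to 0.94, adjusted p = 0.304, groups apart), and Steap4 at 399 to 836 and 463 to 716 CPM. Notch3 differed by -0.39 (-1.11 to 0.33), Srf by 0.09 (-0.84 to 1.02), Mkl1 by 0.40 (-0.35 to 1.16), Mkl2 by 0.32 (-0.09 to 0.73), Pdgfa by -0.18 (-0.67 to 0.31), Pdgfb by 0.27 (-0.39 to 0.93) and Pdgfra by -0.13 (-0.88 to 0.63). Myocd was at group means of 0.290 and 0.119 CPM, Abcc8 of 0.395 and 0, and Kcnj11 of 0 and 0, and these 3 were not tested.

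Set side by side, cultured and sorted cells had the 10 genes in different orders. The tables were scaled separately and the mice differed in age, so no test was made. Per kilobase of exon, the highest gene in sorted wt/Δ cells was Kcnj8 at 98.0 ± 22.2 CPM per kb (SD, n = 3), which was next to last or last in culture. Acta2 at 95.5 ± 76.1 and Pdgfrb at 71.6 ± 30.6 followed, and the ranges of these 3 overlapped. Abcc9 was at 25.9 ± 20.5, Tagln at 22.5 ± 22.3, Mcam at 18.9 ± 8.26 and Rgs5 at 13.1 ± 1.99, each overlapping the next of these 4, then Myh11 at 3.54 ± 2.64, Cspg4 at 1.34 ± 0.552 and Cnn1 at 0.448 ± 0.306. In the sorted Δ/Δ-labelled libraries Kcnj8 was again first, at 124 ± 15.2, and Cnn1 last, at 0.165 ± 0.183.

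The balance between genes of a class also differed. Counts of Acta2 were 6.54 to 8.36 times those of Myh11 in sorted wt/Δ cells and 3.81 to 8.30 times in those labelled Δ/Δ, where in culture the ratio was 92.8 or more in every library. Counts of Kcnj8 were 0.467 to 2.86 times those of Abcc9 in wt/Δ and 1.21 to 1.55 times in the Δ/Δ-labelled libraries, against 0.0566 times or less in culture. Cnn1, which came next after Acta2 and Tagln in 3 of the 4 cultured groups, was at 0 to 2.19 CPM in sorted cells. Pdgfrb was high in both settings, at group means of 628 to 924 and 392 to 516 CPM.

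The genes whose pattern over the 12 cultured libraries was nearest to each member were named by the root mean square difference of log2 CPM centred on each gene's own mean, as a description. Among the 10, Acta2 and Tagln were nearest to each other at 0.0715. For Acta2 the nearest other genes were Nxn at 0.0995, Odc1 at 0.0996 and Pop1 at 0.107, and for Tagln they were Actg2 at 0.107, Odc1 at 0.112 and Calm3 at 0.114. Cnn1 was nearest to Fam57a (0.0986), Exosc8 and Msrb2, and Myh11 to Pde4dip (0.218), Cep126 and Tbc1d1. Pdgfrb was nearest to Mlxip (0.105), Mcam to Ccdc18 (0.262), Abcc9 to Sema6d (0.262), Cspg4 to Fasn (0.398) and Rgs5 to Mkx (0.402). Kcnj8 was not tested in culture and has no such value. The 12 libraries fall into 4 groups, and a small distance can come from the group means alone.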

How the data were processed

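RNA was sequenced in 18 libraries (SMART-Seq v4 with Nextera XT, a kit that keeps no strand), 3 mice per group in the study's methods. The authors aligned reads to mm10 with HISAT2 2.0.4 and deposited raw counts per gene symbol from featureCounts 1.6.3, in one table for cultured and one for sorted cells. The annotation, the strand setting and the treatment of reads with several matches are not given in the sources used here. Groups followed the titles. Counts were filtered by edgeR's filterByExpr (minimum count 10) and scaled by TMM, and edgeR 4.0.16 in R 4.3.3 gave quasi-likelihood tests with Benjamini-Hochberg adjustment over all genes of a table. The 12 cultured libraries were fitted together and the 6 sorted libraries alone. SEs were taken as the log2 fold change over the root of F. The tests were checked on simulated data with known changes.

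The 10 genes and all lists were chosen with earlier results of these data known. The text names the 10 genes, Pot1a, up to 6 genes per wider list and comparison by lowest adjusted p, Srf, Myocd, Mkl1, Mkl2, Notch3, Pdgfa, Pdgfb, Pdgfra, Kcnj11 and Abcc8 whatever their values, and up to 3 nearest genes per member. Art3, Pde5a, Ppp1r12a and further values of these genes were added after they were seen. Exon lengths (GENCODE M21) matched 23376 of 24421 symbols. Replicates of 1 group differed beyond counting noise in all 18 pairs (chi-square per degree of freedom 10.29 to 359.7). Deviations of same-numbered wt/wt libraries of week 1 and week 4 correlated at 0.203, 0.340 and 0.322, so the numbers may pair these groups. The main fit did not use this pairing. The replicate block within each genotype did, and it changed no wt/wt call of the 10 genes over time. That block also pairs the Δ/Δ-labelled weeks, where the same correlations were -0.431, -0.112 and 0.322. No other pair of groups compared had all 3 values over 0.1. Alternatives were RLE scaling, library size only, no filter, DESeq2 1.42.0, replicate blocks, a filter of at least 10 counts in every library, leaving out each library, and the 6 libraries of a comparison alone. Leaving out both week 4 libraries numbered 1, or both megakaryocyte-rich libraries, and a sex covariate were added after seeing the data.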

Additional observations from a re-analysis of the deposited data

Results flagged for a closer look

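None of the 10 genes had a genotype effect that differed between week 4 and week 1 by the test of that difference. Of the 68 tested genes of the wider lists 14 did (edgeR, Benjamini-Hochberg adjusted over all genes), where 7.15% of all genes passed. Each value is the log2 fold change by genotype at week 4 minus that at week 1. Among contractile genes and regulators the difference was 3.02 for Itga8 (adjusted p = 0.000258), 1.66 for Synpo2 (0.0179), 1.28 for Des (0.0265) and 0.52 for Fhl2 (0.0481). Among pericyte markers it was 2.61 for Rgs4 (0.000478), 1.49 for Aoc3 (0.00398), 0.97 for Tbx18 (0.0258), -1.37 for Ndufa4l2 (0.0312), -2.8 for Gucy1b3 (0.0255) and -3.07 for Gucy1a3 (3.14e-05). Gucy1b3 was at group means of 0.145 to 3.27 CPM. In the PDGF and RGS families it was 1.39 for Pdgfra (0.00464), -1.31 for Pdgfa (0.00179), -1.05 for Pdgfc (0.00386) and 1.43 for Rgs2 (0.00151). Without both week 4 libraries numbered 1, Des was not among the genes called, while Myocd and Klf4 (both lower) and Rgs16 (higher) were.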

How the results depend on the processing

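Of the values of single genes under other settings, 765 kept direction and side of the threshold, 18 lost a call, 9 gained one and 50 changed sign, none of them past the threshold in either fit. The cause was not tested. By genotype at week 4, 1 of the 10 genes was called, and 0 at a threshold of 0.01, 0 with at least 10 counts in every library (Rgs5 is then not tested), 0 with a replicate block within each genotype, and 0 to 2 when 1 library was left out. In wt/wt over time 6 were called, and 3 at a threshold of 0.01, 3 with only the 6 libraries compared, and 3 to 7 with 1 library left out. At week 1 it was 0, and 1 (Cspg4) with only the 6 libraries of week 1. Pdgfrb was called over time in the Δ/Δ-labelled libraries (0.38) with only their own 6. For the difference of genotype effects it was 0, and 0 to 1 with 1 library left out and 1 without both week 4 libraries numbered 1. The wider lists had 1 call at week 1 and 6 with DESeq2. The replicate block changed no other call of the 10 genes than that of Rgs5 at week 4 (1.53, adjusted p = 0.207).

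Signs changed as follows, on the log2 scale. Cnn1 at week 1 was -0.000511 with RLE, -0.00282 with DESeq2 and -0.13 with the block within genotype, which also gave -0.00810 for Acta2 and -0.0049 for Tagln at week 4 and -0.011 for Pdgfrb in wt/wt over time. Cspg4 in wt/wt over time was 0.34 without both week 4 libraries numbered 1. In sorted cells Rgs5 was 0.012 by library size only. Without the megakaryocyte-rich libraries Rgs5 was 0.17, Cspg4 0.42 and Abcc9 -0.20. With a sex covariate, which leaves wt/Δ replicate 2 as the only wt/Δ library compared, Myh11 was 0.36. With 1 library left out, ranges at week 1 were -0.0599 to 0.105 for Cnn1 and -0.0289 to 0.217 for Abcc9. At week 4 they were -0.0462 to 0.195 for Acta2, -0.0597 to 0.189 for Tagln and -0.234 to 0.0847 for Cnn1. In wt/wt over time they were -0.15 to 0.37 for Pdgfrb, -0.62 to 0.32 for Cspg4 and -0.97 to 0.0074 for Rgs5. For the difference of effects they were -0.13 to 0.11 for Acta2, -0.165 to 0.0861 for Tagln, -0.363 to 0.0199 for Myh11, -0.237 to 0.0772 for Cnn1 and -0.0901 to 0.428 for Mcam. In sorted cells they were -1.73 to 0.0299 for Acta2, -2.24 to 0.0236 for Tagln, -0.87 to 0.29 for Myh11, -0.26 to 0.95 for Abcc9, -0.21 to 0.0552 for Rgs5 and -0.46 to 0.24 for Cspg4. Rgs5 and Kcnj8 in culture rest on few counts, and 3 libraries per group limit every test.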
